A study of Mus musculus with 10 samples.

Results

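Brown adipose tissue makes heat by spending energy without storing it, and the 10 genes described here encode the best known ways of doing so in mouse brown fat. They are the uncoupling proteins Ucp1, Ucp2 and Ucp3, the creatine cycling genes Ckb, Gatm, Gamt, Slc6a8 and Alpl, and the calcium cycling genes Atp2a2 and Ryr2. They were listed by name, with earlier results of these data known, and all 10 were among the 41249 gene identifiers counted and among the 13739 genes that passed the filter on low counts (a mean above 1 CPM over the mice). CPM are counts scaled to library size, after TMM (trimmed mean of M values) normalisation.

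RNA was sequenced from interscapular brown adipose tissue (iBAT) of 5 mice with a constitutive whole-body knockout of Axl (Axl KO) and 5 wild-type (WT) controls, with 1 library per mouse. Both groups were fed a high-fat diet (HFD) for 24 weeks, started at an age of 6 to 8 weeks according to the sample records, and the paper's text gives a slightly later start and a slightly longer diet. The paper describes the mice as male littermates kept at room temperature, with a knockout-first allele that places a splice acceptor, LacZ and Neo cassette inside the Axl gene in every tissue, so the cell type behind a difference is not given by the design. AXL is a receptor tyrosine kinase of the TAM family, and the comparison asks how its absence changes the brown fat transcriptome of mice on a high-fat diet.

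UCP1 lets protons return across the inner mitochondrial membrane without making ATP, and fatty acids released by adrenergic signalling activate it. In the creatine cycle, creatine kinase phosphorylates creatine and a phosphatase removes the phosphate again, so that ATP is consumed with no net product. In the calcium cycle, the pump SERCA2 moves calcium into the endoplasmic or sarcoplasmic reticulum at the cost of ATP and the ryanodine receptor RYR2 lets it out again. UCP2 and UCP3 are relatives of UCP1 that are not regarded as its equals in heat production.

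The libraries held between 5431014 and 9580215 counted reads. Axl itself fell from 43.2 ± 5.86 CPM (SD, n = 5) in WT to 1.57 ± 0.647 CPM (SD, n = 5) in Axl KO mice, a log2 fold change of -4.77 (SE 0.20), with adjusted p = 1.09e-07 in edgeR. All 16 brown adipocyte markers examined were expressed above the filter, with a summed level of 6896 to 8038 CPM in Axl KO and 6865 to 7507 CPM in WT mice. Skeletal muscle RNA varied widely between the dissected depots. The summed level of 18 skeletal muscle markers ran from 108 to 9945 CPM in Axl KO and from 2061 to 10457 CPM in WT mice, with the lowest values in Axl KO replicates 2 (108 CPM) and 1 (151 CPM). All 18 muscle markers had lower means in Axl KO mice, with none at an unadjusted p under 0.05. Cardiac muscle markers were nearly absent (Nppa and Myl7 had no read), at a summed 3.31 to 5.37 CPM in Axl KO and 4.65 to 6.29 CPM in WT mice. Since these are whole-tissue libraries, fewer cells of a type and less RNA per cell cannot be told apart for any value below.

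Promoter sequences are shown for Ucp1, Ckb, Gamt and Alpl, because the text refers back to their levels and directions. Of these, Ckb did not reach an unadjusted p under 0.05 between the genotypes in edgeR. Ryr2 did, and its window is not shown. Each is the 250 bases before the transcription start in RefSeq (build GRCm38.p6), written 5′ to 3′ on the strand of the gene, and an entry was matched for 8 of the 10 genes. The windows are Ucp1 at chr8:83290098-83290347 on the plus strand, Ckb at chr12:111672339-111672588, Gamt at chr10:80261013-80261262 and the upstream start of Alpl at chr4:137796385-137796634, the last 3 on the minus strand. Capitals mark matches, on either strand, to the cAMP response element core TGACG, the nuclear receptor half-site AGGTCA, the TATA box TATAAA, the CCAAT box CCAAT and the GC box GGGCGG.
Ucp1: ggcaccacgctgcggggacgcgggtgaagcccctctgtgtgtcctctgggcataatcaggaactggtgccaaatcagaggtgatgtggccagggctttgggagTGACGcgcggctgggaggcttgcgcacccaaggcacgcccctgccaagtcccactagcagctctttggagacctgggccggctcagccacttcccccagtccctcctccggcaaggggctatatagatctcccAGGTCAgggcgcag
Ckb: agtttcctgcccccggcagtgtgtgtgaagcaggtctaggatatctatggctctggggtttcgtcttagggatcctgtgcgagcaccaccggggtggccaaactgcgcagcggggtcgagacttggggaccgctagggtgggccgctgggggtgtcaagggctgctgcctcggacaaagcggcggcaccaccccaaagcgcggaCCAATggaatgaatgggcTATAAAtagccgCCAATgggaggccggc
Gamt: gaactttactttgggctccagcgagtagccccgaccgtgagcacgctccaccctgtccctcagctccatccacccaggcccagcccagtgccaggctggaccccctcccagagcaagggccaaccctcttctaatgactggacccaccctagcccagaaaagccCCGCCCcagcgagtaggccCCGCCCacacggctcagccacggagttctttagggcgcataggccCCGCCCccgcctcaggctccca
Alpl: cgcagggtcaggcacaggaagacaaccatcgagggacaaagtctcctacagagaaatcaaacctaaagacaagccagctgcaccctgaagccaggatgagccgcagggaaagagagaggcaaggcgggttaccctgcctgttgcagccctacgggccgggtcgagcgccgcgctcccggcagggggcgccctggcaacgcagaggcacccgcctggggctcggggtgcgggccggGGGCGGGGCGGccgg

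The Ucp1 window held TGACG beginning 147 bases and AGGTCA beginning 14 bases before the start, and no exact TATAAA. Only exact letters were searched, so near matches, such as the tatata just upstream of that AGGTCA, were not marked. The Ckb window held TATAAA at 28 bases and CCAAT at 46 and 16 bases. The Gamt window held 3 GC boxes, all read on the opposite strand (printed as the reverse complement), at 86, 67 and 22 bases. In the Alpl window a pair of overlapping GC boxes lay at 15 and 10 bases. These letters are common, and a match is a description of the window only. Of 32851 RefSeq promoter windows of the same length, TGACG was in 17.8%, AGGTCA in 14.0%, TATAAA in 12.4%, CCAAT in 33.8% and GGGCGG in 32.7%. AGGTCA was also present in the windows of Ucp3 (149 and 44 bases), Ryr2 (117 bases), Gatm (156 bases) and the downstream start of Alpl (31 bases). TGACG was also in the windows of Ucp2 (62 bases) and the downstream start of Alpl (128 bases). That Alpl window further held TATAAA (192 bases), the Gatm window CCAAT (190 and 55 bases) and the Ucp2 window a GC box (79 bases).

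The levels of the 10 genes spanned more than 3 orders of magnitude when expressed per kilobase of the principal transcript, which is the scale on which genes can be compared. Ucp1 stood first at 2965 ± 762 CPM per kb (SD, n = 10 mice), 28.5 times the level of Atp2a2, which followed at 104 ± 7.69 CPM per kb. Ucp3 came next at 38.9 ± 8.84 and Ckb at 21.3 ± 6.04 CPM per kb. Each of these 4 genes exceeded the one after it in all 10 mice.

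Further down, neighbours from Slc6a8 to Gamt changed places between mice. Slc6a8 (7.22 ± 1.06 CPM per kb) exceeded Alpl (5.38 ± 1.96) in 8 of 10 mice, and Alpl exceeded Ryr2 (5.05 ± 0.779) in 6. Ryr2 exceeded Ucp2 (4.12 ± 0.886) in 8, and Ucp2 exceeded Gamt (3.93 ± 1.06) in 5 of 10 mice. Gatm was last at 0.815 ± 0.214 CPM per kb and lay below Gamt in all 10 mice. By CPM over all genes tested, Ucp1 ranked between 8 and 28 in the individual mice, Atp2a2 between 232 and 288, and Gatm between 11580 and 13444.

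Between the genotypes, none of the 10 genes passed an adjusted p of 0.05 in the quasi-likelihood test of edgeR, where 0.00728% of all genes tested (Axl alone) did. At an unadjusted p under 0.05 there were 5 of the 10, against 8.38% of all genes tested. Since the genes were chosen with results of these data known, the 5 of 10 is a description and not independent evidence, and the share over all genes was 14.8% without Axl KO replicate 3. Ucp1, Alpl and Ryr2 had higher levels in Axl KO mice, 3 of 10 against 4.52% of all genes tested in that direction, and Gamt and Slc6a8 had lower levels. In none of the 10 were the Axl KO and WT values fully apart, as they were for 1.36% of all genes tested. The log2 fold changes of the 10 ranged from -0.62 to 0.63 with a median of 0.083, and the median of all genes tested was -0.000783.

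**Figure D1:**
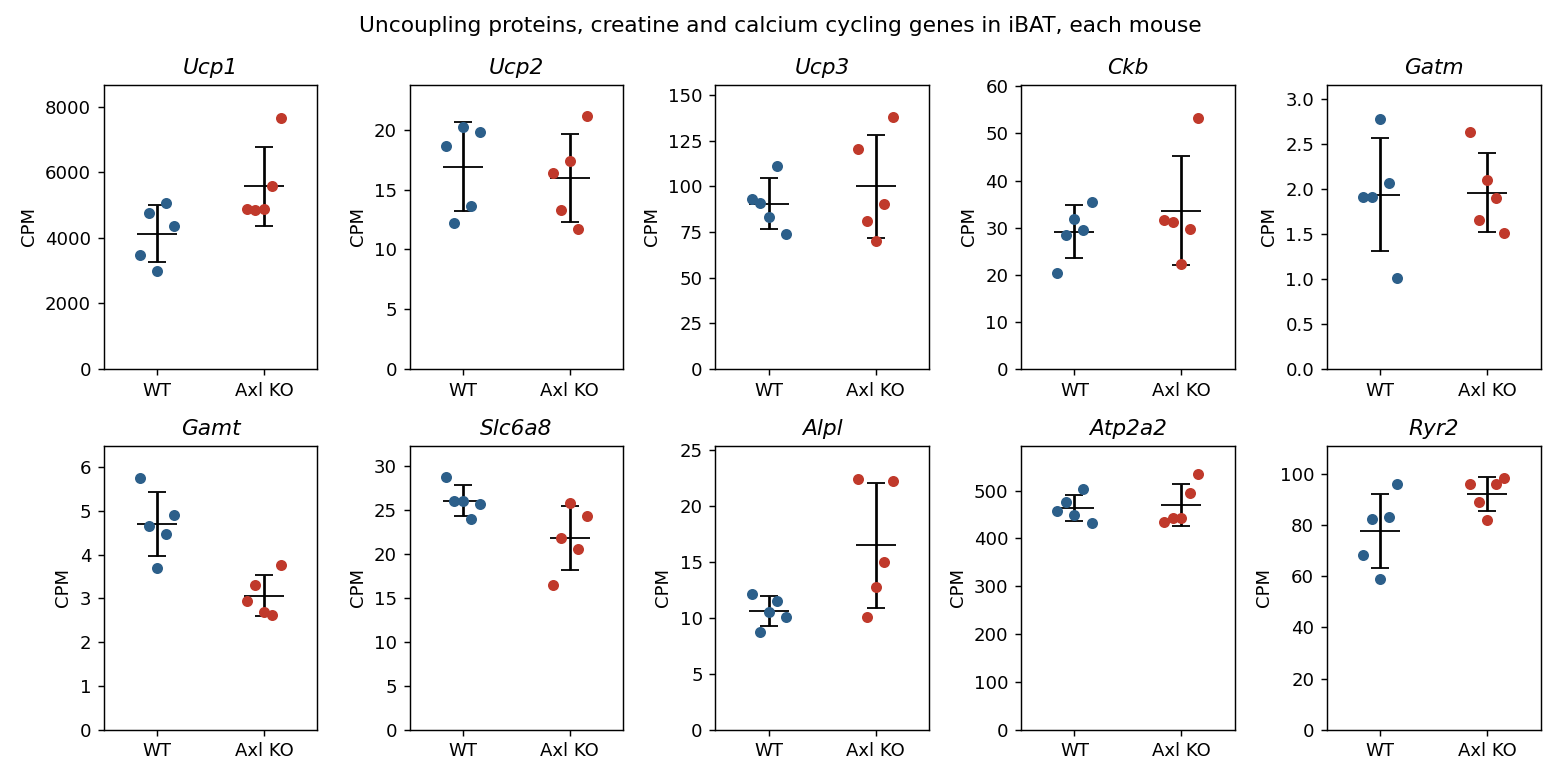
CPM of each of the 10 genes in every mouse (vertical axes from 0), with WT in blue and Axl KO in red, the mean as a long bar and the SD as an error bar (n = 5 per genotype). Of the 5 Axl KO mice, 4 lay above all WT mice for Alpl and below all WT mice for Gamt, and in every panel the groups overlapped.

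Ucp1 (ENSMUSG00000031710, GRCm38 chr8:83290352-83298452, plus strand) encodes the proton carrier that defines brown fat. It measured 4881, 4864, 4886, 5582 and 7648 CPM in Axl KO replicates 1 to 5, and 3481, 4753, 2996, 5050 and 4360 CPM in WT replicates 1 to 5. The lowest Axl KO mouse lay above 4 of the 5 WT mice, and Axl KO replicate 5 was far above all others. The means were 5572 ± 1200 CPM in Axl KO and 4128 ± 866 CPM in WT (SD, n = 5 each), a 1.35-fold difference with a 95% confidence interval of 1.06 to 1.72. The log2 fold change was 0.43 (SE 0.16), with p = 0.0186 and adjusted p = 0.572 in edgeR, and p = 0.0556 in a two-sided exact permutation test of the levels (5 against 5 cannot go below 0.00794). The unadjusted p was under 0.05 in 18 of 19 alternative analyses, and above it only without Axl KO replicate 5. The log2 fold change was 0.29 without that mouse, the lowest of the 19. It was 0.52 with the muscle markers as a covariate. The highest, 0.55, came without the 2 mice with the fewest muscle reads, an analysis chosen after the data were seen. With library totals in place of TMM scaling the exact permutation test gave p = 0.0238.

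The genes of the other uncoupling proteins lie next to each other on chromosome 7, and neither reached an unadjusted p under 0.05. Ucp3 (ENSMUSG00000032942, chr7:100472990-100486432, plus strand), the muscle and brown fat relative, was at 121, 80.9, 70.2, 90.3 and 138 CPM in Axl KO replicates 1 to 5 and at 93.2, 90.7, 83.3, 111 and 73.9 CPM in WT replicates 1 to 5. The Axl KO mice were both the highest and the lowest of the 10, and the spread within Axl KO mice (SD 28.4 CPM) exceeded that within WT mice (SD 13.8 CPM). Its log2 fold change was 0.14 with a 95% confidence interval of -0.23 to 0.51 and adjusted p = 0.828 in edgeR.

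Ucp2 (ENSMUSG00000033685, chr7:100493337-100502020, plus strand) is expressed in many tissues, immune cells among them. It ranged from 11.7 to 21.1 CPM in Axl KO and from 12.2 to 20.3 CPM in WT mice, with means of 15.97 ± 3.70 and 16.9 ± 3.73 CPM (SD, n = 5 each). The 2 ranges coincide almost completely, and the log2 fold change was -0.090 (95% confidence interval -0.48 to 0.30, edgeR adjusted p = 0.908). Its exons overlap those of Dnajb13 on the opposite strand by 305 bases, and since the strand setting of the counting is not given, reads there cannot be assigned to one gene or the other. The 11 macrophage markers summed to 130 to 238 CPM in Axl KO and 142 to 226 CPM in WT mice, and their part in the Ucp2 level was not tested.

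Per kilobase, Ucp1 made up 98.2 to 98.9% of the sum of the 3 uncoupling proteins in Axl KO and 97.9 to 98.7% in WT mice. The other inner-membrane carriers for which proton leak has been described gave 0 of 7 tested genes at an adjusted p under 0.05 in edgeR. At an unadjusted p under 0.05 there was 1 of 7, against 8.38% of all genes tested. That gene, Slc25a4, the ADP/ATP carrier of heart and muscle that is also abundant in brown fat, was at 447 ± 47.1 CPM in Axl KO and 504 ± 34.0 CPM in WT mice (SD, n = 5 each). Its log2 fold change was -0.17 (SE 0.079, edgeR adjusted p = 0.588), and 4 of 5 Axl KO mice lay below all WT mice. In Axl KO replicates 2 and 5, with the lowest and highest summed muscle markers of that group, it was at 434 and 521 CPM. In WT replicates 5 and 3, the lowest and highest of theirs, it was at 454 and 538 CPM. The part of muscle RNA in this difference was not tested. The broadly expressed ADP/ATP carrier Slc25a5 had a log2 fold change of 0.073. For the brain-enriched uncoupling protein relatives Slc25a14 and Slc25a27 the log2 fold changes were -0.43 and 0.030, at 1.83 and 3.23 CPM in Axl KO mice, and for Slc25a30 it was 0.19.

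Of 20 regulators of Ucp1 transcription, all tested, 13 had higher and 7 lower means in Axl KO mice. Over all genes tested, 49.7% had higher means. Of the 20, 0 reached an unadjusted p under 0.05 in edgeR in either direction, against 8.38% of all genes tested. The log2 fold changes of these regulators had a median of 0.034 and ran from -0.20 for Ppara, the fatty acid-activated nuclear receptor, to 0.58 (SE 0.29, edgeR adjusted p = 0.608) for the transcription factor Irf4. The coactivator Ppargc1a was at 0.023 and the zinc finger regulator Prdm16 at 0.044.

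In the creatine cycle, some genes had higher and others lower means in Axl KO mice. Alpl (tissue-nonspecific alkaline phosphatase), the phosphatase that removes phosphate from phosphocreatine in brown fat mitochondria, was higher in Axl KO mice at 1.55-fold, and Gamt, which completes creatine synthesis, was lower at 0.649-fold. Ckb and Gatm did not reach an unadjusted p under 0.05, and the creatine importer Slc6a8 was lower at 0.837-fold. None of these 5 passed the adjusted threshold.

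Alpl (ENSMUSG00000028766, chr4:137741733-137796384, minus strand) measured 22.4, 10.1, 12.7, 15.0 and 22.3 CPM in Axl KO replicates 1 to 5. In WT replicates 1 to 5 it was at 12.2, 8.70, 10.5, 11.5 and 10.1 CPM, so that 4 of 5 Axl KO mice lay above all WT mice and replicate 2 lay among them. The means were 16.5 ± 5.60 and 10.6 ± 1.35 CPM (SD, n = 5 each), and the log2 fold change was 0.63 (SE 0.21, 95% confidence interval 0.19 to 1.08). edgeR gave p = 0.00921 and adjusted p = 0.572, and the exact permutation test p = 0.0397. The unadjusted p stayed under 0.05 in all 19 alternative analyses, while the adjusted p ranged from 0.172 to 0.840. Alpl is also expressed in osteoblasts, kidney and other cells, and which cells of the depot carried these reads was not tested. The promoter shown above belongs to the upstream of its 2 RefSeq starts, and the counts per gene do not separate the starts.

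Gamt (guanidinoacetate methyltransferase, ENSMUSG00000020150, chr10:80258151-80261012, minus strand) measured 2.94, 3.31, 2.69, 2.63 and 3.77 CPM in Axl KO replicates 1 to 5, and 5.75, 4.67, 3.71, 4.48 and 4.92 CPM in WT replicates 1 to 5. The 4 lowest Axl KO mice lay below all WT mice, and replicate 5 exceeded the lowest WT mouse by a narrow margin. The means were 3.07 ± 0.478 and 4.70 ± 0.737 CPM (SD, n = 5 each). The log2 fold change was -0.62 (SE 0.17, 95% confidence interval -1.001 to -0.25), with p = 0.00317 and adjusted p = 0.572 in edgeR and p = 0.0159 in the exact permutation test. These levels rest on 18 to 23 reads in Axl KO and 26 to 44 reads in WT mice, so each single value has a wide counting error. As for Alpl, the unadjusted p stayed under 0.05 in all 19 alternatives, with an adjusted p between 0.202 and 0.840.

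Gatm (ENSMUSG00000027199, chr2:122594467-122611303, minus strand), which makes guanidinoacetate in the step before Gamt, was at 1.51 to 2.63 CPM in Axl KO and 1.01 to 2.78 CPM in WT mice. Its level rests on 8 to 18 reads in Axl KO and 8 to 24 reads in WT mice, and the log2 fold change was 0.024 (95% confidence interval -0.55 to 0.60, edgeR adjusted p = 0.992). The 2 enzymes of creatine synthesis are known mainly from kidney, pancreas and liver, and they had the 2 lowest CPM of the 10 genes.

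Slc6a8 (ENSMUSG00000019558, chrX:73673150-73682502, plus strand), the creatine transporter of the plasma membrane, measured 16.4, 21.8, 25.8, 20.6 and 24.3 CPM in Axl KO replicates 1 to 5 and 28.7, 25.99, 25.95, 23.9 and 25.6 CPM in WT replicates 1 to 5. The 3 lowest Axl KO mice lay below all WT mice and the other 2 within their range. The log2 fold change was -0.26 (SE 0.11, 95% confidence interval -0.49 to -0.023, edgeR p = 0.0335, adjusted p = 0.572), and the exact permutation test gave p = 0.0556. Its deviations from the genotype means moved with those of the muscle markers (r = 0.63 across 10 mice). With the muscle markers as a covariate the log2 fold change was -0.14. It was also -0.14 without the 2 mice with the fewest muscle reads, an analysis chosen after the data were seen. In both the unadjusted p was above 0.05. That p was under 0.05 in 10 of 19 alternatives. It was also above 0.05 when WT replicate 1, 2 or 3 was left out (log2 fold changes -0.22, -0.26 and -0.26). The same held for Axl KO replicates 1, 2 and 4 (-0.17, -0.26 and -0.24). The part of muscle RNA in the Slc6a8 difference was not tested.

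Ckb (ENSMUSG00000001270, chr12:111669361-111672338, minus strand), the brain-type creatine kinase that carries the cycle in brown fat, was at 31.5, 31.2, 22.2, 29.8 and 53.2 CPM in Axl KO replicates 1 to 5 and at 20.4, 28.5, 31.9, 29.5 and 35.4 CPM in WT replicates 1 to 5. Apart from Axl KO replicate 5, the groups covered the same range. Its log2 fold change was 0.19 (95% confidence interval -0.25 to 0.63, edgeR adjusted p = 0.814) and -0.032 without that mouse.

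The other creatine kinases moved with the muscle markers of each depot. Ckm, the muscle creatine kinase, averaged 126 ± 160 CPM in Axl KO and 255 ± 163 CPM in WT mice (SD, n = 5 each), with a log2 fold change of -1.03 (SE 1.01, edgeR adjusted p = 0.795), and Ckmt2, the sarcomeric mitochondrial form, had a log2 fold change of -0.91 (SE 0.85). Across the 10 mice their deviations from the genotype means went with the muscle markers at r = 0.994 and r = 0.982, against r = 0.13 for Ckb. Per kilobase, Ckb made up 95.8, 99.5, 17.9, 39.3 and 16.8% of the 4 creatine kinases in Axl KO replicates 1 to 5. In WT replicates 1 to 5 the share was 7.99, 34.5, 10.7, 12.2 and 39.8%. The shares depend on the length used. Per kilobase of all exons of a gene together, the median share of Ckb was 25.7% in Axl KO and 6.88% in WT mice. Per kilobase of the principal transcript the medians were 39.3 and 12.2%. The ubiquitous mitochondrial form Ckmt1 was below the filter, as was the betaine transporter Slc6a12. The taurine transporter Slc6a6 was at 178 CPM in Axl KO and 151 CPM in WT mice (log2 fold change 0.24, SE 0.098, edgeR adjusted p = 0.572). It was the 1 gene of 3 tested in the list of other creatine genes with an unadjusted p under 0.05, against 8.38% of all genes tested.

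**Figure D2:**
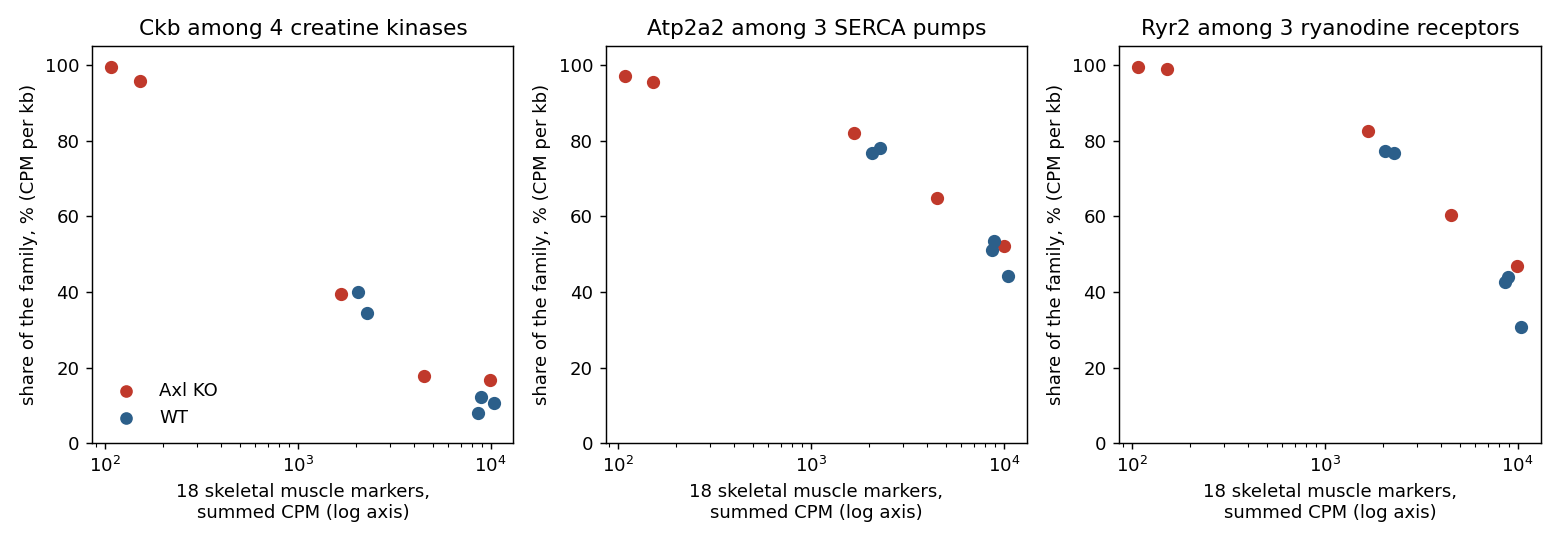
Share of each family, in percent of the summed CPM per kb, taken by Ckb, Atp2a2 and Ryr2 (vertical axes) against the summed CPM of 18 skeletal muscle markers in the same mouse (log axis), with 1 point per mouse. In Axl KO replicates 1 and 2, with 151 and 108 CPM of muscle markers, Ckb made up 95.8 and 99.5% of the creatine kinases, and the share was at most 39.8% in the other 8 mice.

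In the calcium cycle, the pump did not differ between genotypes beyond the spread, and the channel had a higher mean in Axl KO mice. Atp2a2 (SERCA2, ENSMUSG00000029467, chr5:122453513-122502225, minus strand) measured 433, 442, 442, 496 and 534 CPM in Axl KO replicates 1 to 5 and 457, 476, 449, 503 and 433 CPM in WT replicates 1 to 5. The means, 469 ± 44.0 and 464 ± 26.9 CPM (SD, n = 5 each), lay well within each other's spread. Their log2 fold change was 0.018 with a 95% confidence interval of -0.14 to 0.18 (edgeR adjusted p = 0.965), the narrowest interval of the 10 genes. Its deviations moved with those of the muscle markers at r = 0.61 across 10 mice. Its exons overlap those of Gm43361, on the opposite strand, by 83 bases.

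Ryr2 (ENSMUSG00000021313, chr13:11553102-12106945, minus strand), the cardiac-type ryanodine receptor, was at 96.0, 88.9, 82.1, 96.0 and 98.2 CPM in Axl KO replicates 1 to 5. In WT replicates 1 to 5 it was at 68.4, 82.3, 58.7, 83.0 and 96.2 CPM. The Axl KO mice lay close together, from 82.1 to 98.2 CPM. WT replicates 1 and 3 lay below all others, and the remaining WT mice lay within the Axl KO range. On the log2 scale the difference was 0.25 (SE 0.11, 95% confidence interval 0.00035 to 0.49, edgeR p = 0.0497, adjusted p = 0.595), and the exact permutation test gave p = 0.103. The unadjusted p was under 0.05 in 7 of 19 alternatives, and it was 0.154 in edgeR with the muscle markers as a covariate (log2 fold change 0.19). Cardiac muscle markers were nearly absent from these depots. The deviations of Ryr2 had a weak r of -0.26 with those of the skeletal muscle markers across 10 mice. The covariate fit adjusts the difference between the genotypes, and the part of muscle RNA in the Ryr2 level itself was not tested.

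The skeletal muscle members of both families again moved with the muscle markers. Atp2a1 (SERCA1) averaged 125 ± 155 CPM in Axl KO and 255 ± 155 CPM in WT mice and Ryr1 34.2 ± 42.6 and 70.0 ± 43.8 CPM (SD, n = 5 each), with log2 fold changes of -1.04 (SE 0.97) and -1.05 (SE 0.84) and r = 0.995 and 0.998 with the muscle markers. Per kilobase, Atp2a2 made up 52.0 to 97.2% (median 82.1%) of the 3 SERCA pumps in Axl KO and 44.2 to 78.1% (median 53.4%) in WT mice. Ryr2 made up 46.8 to 99.4% (median 82.4%) of the 3 ryanodine receptors in Axl KO and 30.8 to 77.3% (median 44.0%) in WT mice, so that the ranges overlapped in both families. Per kilobase of all exons together, the medians in Axl KO and WT mice were 77.4 and 45.9% for Atp2a2 and 79.6 and 39.5% for Ryr2. Sarcolipin (Sln), a SERCA regulator that uncouples the pump in skeletal muscle, was at 0 to 1.51 CPM and phospholamban (Pln), its cardiac relative, at 0.15 to 1.09 CPM, both below the filter.

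The other calcium release channel family, the inositol trisphosphate receptors, was more abundant in CPM. Itpr1 was at 588 CPM in Axl KO and 589 CPM in WT mice (log2 fold change -0.00065). Itpr2 was at 555 ± 63.7 CPM in Axl KO and 627 ± 32.5 CPM in WT mice (SD, n = 5 each), with a log2 fold change of -0.18 (SE 0.080, edgeR p = 0.0486, adjusted p = 0.589, exact permutation p = 0.0397) and 4 of 5 Axl KO mice below all WT mice. Atp2a3 and Itpr3 had log2 fold changes of 0.20 and 0.19. Of 32 other calcium pumps, channels and regulators of the reticulum, 26 were tested. Of these, 13 had higher means in Axl KO mice, against 49.7% of all genes tested. The median log2 fold change of the 26 was 0.0018. None of the 26 had an adjusted p under 0.05 in edgeR. At an unadjusted p under 0.05 there were 2 of 26, against 8.38% of all genes tested. They were Itpr2 and Fkbp1a, an immunophilin that binds ryanodine receptors (log2 fold change of Fkbp1a -0.23).

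**Figure D3:**
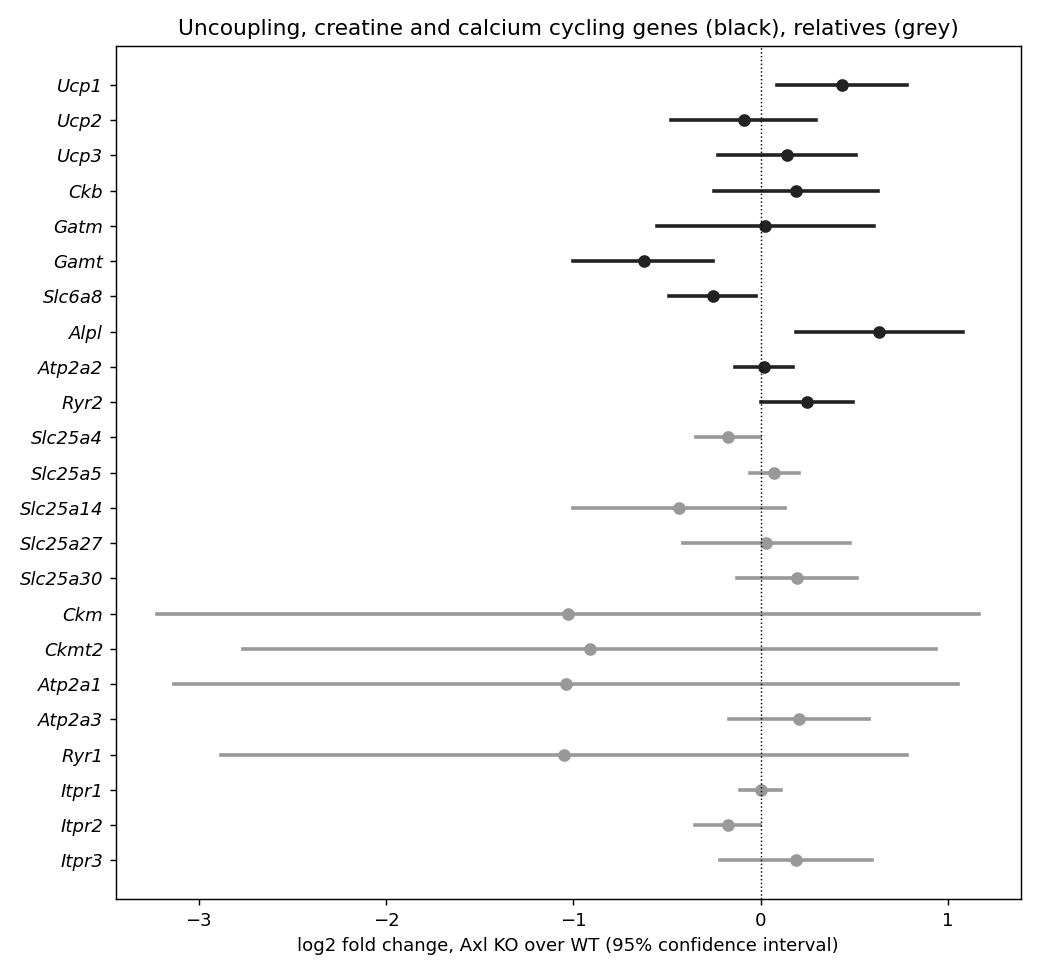
Log2 fold change of Axl KO over WT with its 95% confidence interval from edgeR's quasi-likelihood fit, for the 10 genes (black) and their named relatives (grey), with the dotted line at 0. The intervals of Ucp1, Gamt, Slc6a8, Alpl and Ryr2 lay to one side of 0, that of Ryr2 by 0.00035, and the muscle isoforms Ckm, Ckmt2, Atp2a1 and Ryr1 had the widest intervals.

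Across the 10 mice, the levels of the other 9 genes were compared with that of Ucp1, on log2(CPM + 1). Ryr2 went with Ucp1 at Pearson r = 0.83 (permutation p = 0.00232, adjusted p = 0.0209 over the 9 relations) but at Spearman rho = 0.576 (permutation p = 0.0862, adjusted p = 0.254). Without Axl KO replicate 5 and WT replicate 3, the mice farthest from the median of Ucp1, r was 0.70 over 8 mice. The adjusted p was above 0.05 when any of 4 mice was left out (0.0507 without Axl KO replicate 5, 0.0673 without Axl KO replicate 4, 0.170 without WT replicate 3 and 0.203 without WT replicate 1, permutation tests), so the relation rests in part on single mice.

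The next were Atp2a2 (r = 0.64, rho = 0.54), Ckb (r = 0.58, rho = 0.12) and Alpl (r = 0.56, rho = 0.60), each with adjusted p = 0.201 for r by permutation. Without the same 2 mice r was 0.36 for Atp2a2, 0.21 for Alpl and 0.50 for Ckb. Ucp3 gave r = 0.53 (adjusted permutation p = 0.205), and 0.10 without those mice. Without Axl KO replicate 5 alone, r was 0.15 for Ckb, 0.33 for Atp2a2, 0.28 for Alpl, 0.17 for Ucp3 and 0.87 for Ryr2. Negative values were found for 4 genes, with r = -0.35 for both Gamt and Slc6a8 (rho = -0.50 and -0.61), r = -0.37 for Gatm and r = -0.21 for Ucp2, none with an adjusted permutation p under 0.05. These values include the difference between the genotypes. On deviations from the genotype means, r with Ucp1 was 0.76 for Atp2a2, 0.74 for Ryr2, 0.58 for Ckb, 0.41 for Gamt and 0.07 for Slc6a8. These were not computed again without Axl KO replicate 5, which had the highest Axl KO level of Ucp1, Atp2a2, Ryr2, Ckb and Gamt.

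**Figure D4:**
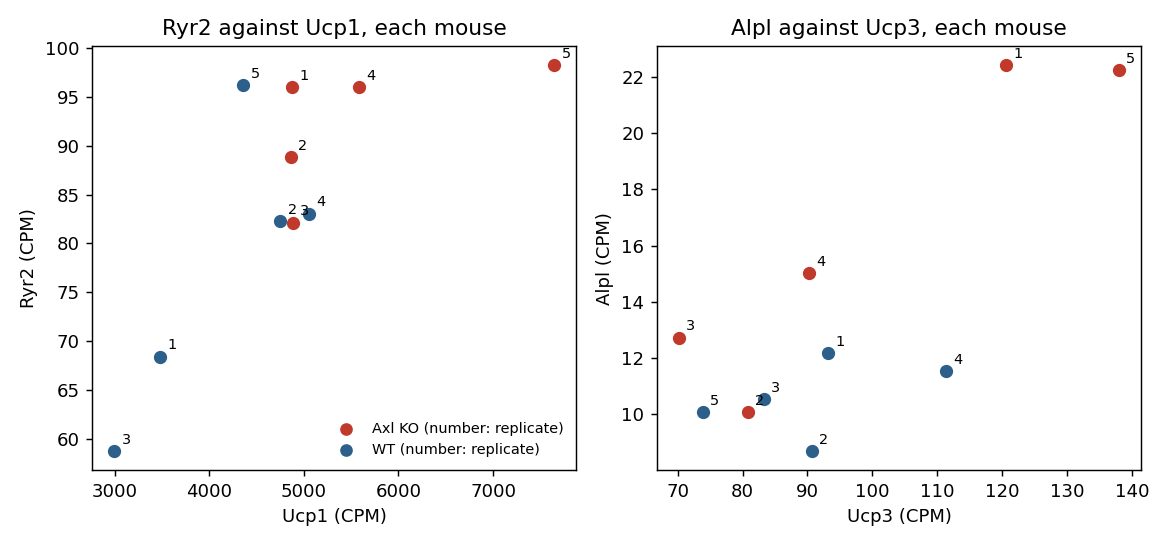
CPM of Ryr2 against Ucp1 (left) and of Alpl against Ucp3 (right), with 1 point per mouse numbered by replicate, Axl KO in red and WT in blue. WT replicates 1 and 3 sit at the lower left and Axl KO replicate 5 at the upper right for Ryr2 and Ucp1, and Axl KO replicates 1 and 5 lie apart from the other 8 mice for Alpl and Ucp3.

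Among all pairs of the 10 genes, the deviations from the genotype means were most alike for Ucp3 and Alpl (r = 0.81), Ucp1 and Atp2a2 (r = 0.76) and Ucp1 and Ryr2 (r = 0.74). Gatm and Ryr2 had the most opposed deviations (r = -0.70). These values describe 10 mice that share their libraries, and no test was made over the pairs.

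**Figure D5:**
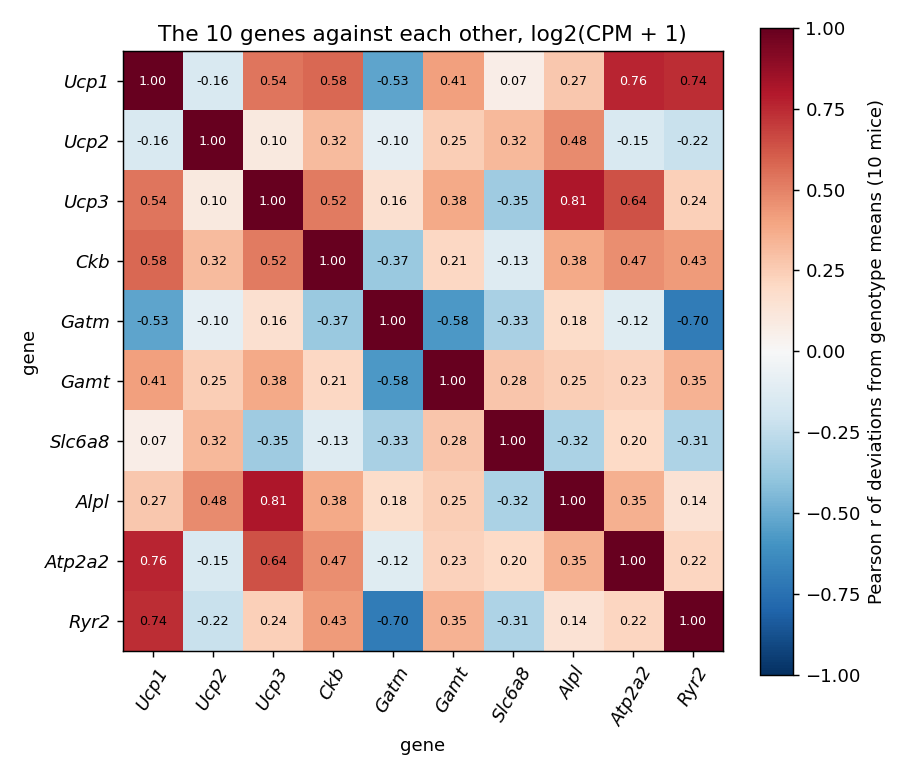
Pearson r between each pair of the 10 genes, on deviations from the genotype means of log2(CPM + 1) over 10 mice, from -1 (blue) to 1 (red). Ucp1, Ucp3, Ckb and Atp2a2 had r between 0.47 and 0.76 with each other, and Gatm had negative values with Ucp1 (-0.53) and Ryr2 (-0.70).

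The genes with the most similar pattern over the 10 mice, by the same measure, were C430014B12Rik (r = 0.98, at 1.58 CPM) and Ubac1 (r = 0.95) for Ucp1, Aoah (0.93) and Ube2a (0.92) for Ucp2, and Acp5 (0.96) and Qpctl (0.96) for Ucp3. They were Klf15 (r = 0.96) and Lrp10 (0.95) for Ckb, Adgrg2 (0.94) and Mettl5 (0.93) for Gatm, Thg1l (0.94) and Timm10 (0.91) for Gamt, Zfp119b (0.93) and Degs1 (0.92) for Slc6a8, and Polr2k (0.97) and Ssbp4 (0.96) for Alpl. For Atp2a2 they were Aqp11 (r = 0.96) and Malsu1 (0.94), and for Ryr2 B4galt4 (0.91) and Etnk1 (0.91). Each is the best of 13739 genes over 10 mice, so values of this size describe the search as well as the genes.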

How the data were processed

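RNA of iBAT from 5 Axl KO and 5 WT mice was sequenced, with 1 library per mouse. The authors deposited 1 table per mouse with raw read counts per Ensembl gene, without normalization or pooling. The paper names Trim Galore, hisat2 and rRNA depletion, whereas the submitters' processing notes list Trimmomatic 0.36, STAR 2.6.1c, DESeq2 and GRCm38.p5 and the labels name polyadenylated RNA. The counting tool and its strand setting are not given in the sources used here, and a misassigned antisense read would move a count. Symbols and transcript lengths came from GENCODE M21 (41163 of 41249 identifiers matched).

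Counts were tested without covariates by the quasi-likelihood method of edgeR 4.0.16 (R 4.3.3), scaled by TMM, over 13739 genes with a mean above 1 CPM, with Benjamini-Hochberg adjustment over all of them. The biological coefficient of variation was 14.8%, and the libraries held 5431014 to 9580215 reads, which gives counts of 8 to 24 for Gatm in WT mice. Single levels were compared on log2(CPM + 1) with two-sided exact permutation tests, and correlations across mice with 100000 permutations. Labels number the mice, and nothing in them states separate litters or batches. Any pair of mice differed by more than sampling noise (lowest chi-square per gene 5.46). The procedure was tested on simulated data.

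The 10 genes and all lists were chosen with earlier results of these data known. Named genes are the 10, Axl, their paralogues and pump regulators, pathway genes without overlap between groups, and the 2 genes most alike in pattern to each. Other pathway genes with an unadjusted p under 0.05 were named after their values were seen, as were Ppargc1a, Prdm16, Irf4, Ppara, Slc6a12, Pnpla2 and Lipe. Alternatives were RLE size factors, DESeq2 1.42.0, filterByExpr, no filter, a robust fit, a replicate block, muscle markers as a covariate, protein-coding genes alone, another pseudocount, raw totals and each mouse left out.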

Additional observations from a re-analysis of the deposited data

Results flagged for a closer look

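Ucp1 in Axl KO replicate 5, at 7648 CPM, stood apart from the other 4 Axl KO mice. The nearest of them was at 5582 CPM, and the gap was 0.742 of the range of the group, above Dixon's 95% critical value of 0.71 for 5 samples. Among 20 groups of 5 examined (the 10 genes in each genotype), 1 was singled out, and chance gives about 1 in 20. The same mouse had the highest Axl KO level of Ucp2, Ucp3, Ckb, Gamt, Atp2a2 and Ryr2, the smallest library (5431014 reads) and the highest summed level of skeletal muscle markers among Axl KO mice (9945 CPM). The part of these in the Ucp1 level was not tested.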

How the results depend on the processing

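None of the 10 genes had an adjusted p under 0.05 in any alternative. DESeq2 called 9 genes in all, against 1 with edgeR, and its lowest adjusted p among the 10 was 0.392 (Alpl), with 952 genes and 5 of the 10 at an unadjusted p under 0.05. The number of the 10 with an unadjusted p under 0.05 was 3 with the muscle markers as a covariate, 3 without the 2 mice with the fewest muscle reads (chosen after seeing the data) and 3 to 5 with each mouse left out, against 5. The share of all genes tested at that p was 6.84%, 5.9% and 5.94 to 14.8% in the same analyses, highest without Axl KO replicate 3, against 8.38%. The log2 fold change of Ucp2 was 0.056 with the muscle covariate, and that of Gatm -0.055 without the 2 mice. With each mouse left out, the log2 fold changes of genes near 0 crossed it: Ucp2 from -0.20 to 0.0048, Ucp3 from -0.00038 to 0.25, Ckb from -0.032 to 0.31, Gatm from -0.14 to 0.20 and Atp2a2 from -0.034 to 0.049. The ranges were 0.29 to 0.52 for Ucp1, -0.70 to -0.54 for Gamt, -0.33 to -0.17 for Slc6a8, 0.49 to 0.76 for Alpl and 0.16 to 0.34 for Ryr2. The number of genes whose r with Ucp1 had an adjusted p under 0.05 was 0 to 1, and r between Ucp2 and Ucp1 ran from -0.75 to 0.037. The causes were not tested. Same-numbered mice did not deviate alike throughout (correlations of their deviations from -0.356 to 0.373, with 1 of 5 Axl KO mice closest to its own number). These correlations cannot exclude pairing by litter or batch. With the replicate block 1 gene was called and 4 of the 10 had an unadjusted p under 0.05 in edgeR. That p was lower than without the block for Ucp1 (0.00581), Alpl (0.00462) and Ryr2 (0.0129). It was higher for Gamt (0.00725) and Slc6a8 (0.0522). Gatm and Gamt had 8 to 44 reads per mouse, and the TMM scaling moved the exact permutation p of Ucp1 (0.0238 with raw totals).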

Other observations

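The triglyceride and glycerol cycle, another route by which fat cells spend ATP, gave 8 of 12 genes with higher means in Axl KO mice, against 49.7% of all genes tested. Their median log2 fold change was 0.12, against -0.000783 over all genes tested. None had an adjusted p under 0.05 in edgeR, and 3 of 12 had an unadjusted p under 0.05, all higher in Axl KO mice, against 4.52% of all genes tested in that direction. Gk, the glycerol kinase that lets adipocytes reuse glycerol, was at 425 CPM in Axl KO and 254 CPM in WT mice, with a log2 fold change of 0.75 (SE 0.17, edgeR adjusted p = 0.572), and the groups overlapped. The acyltransferases Gpam and Agpat2, early enzymes of triglyceride synthesis, both had log2 fold changes of 0.29 (edgeR adjusted p = 0.572 each). The lipases Pnpla2 and Lipe had log2 fold changes of 0.13 and -0.075 (edgeR adjusted p = 0.683 and 0.751).

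Among marker lists, the median log2 fold change was 0.12 for 16 brown adipocyte genes, of which 14 had higher means in Axl KO mice (49.7% of all genes tested), 4 an unadjusted p under 0.05 with higher levels (4.52%) and 2 groups that did not overlap (1.36%). The list was chosen with results of these data known. It was 0.042 over 7 adipocyte genes tested, -0.99 over 18 skeletal muscle genes, -0.093 over 8 smooth muscle and pericyte genes, -0.019 over 10 macrophage genes, -0.12 over 7 endothelial genes, -0.32 over 6 fibroblast genes, -0.046 over 3 Schwann cell genes and 0.021 over 5 erythroid genes. All 9 lymphocyte markers were below the filter, and 1 cardiac marker was tested, at -0.37. Among the fibroblast markers all 6 had lower means in Axl KO mice, with summed levels of 374 to 620 CPM against 539 to 722 CPM in WT mice.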
